A study of Mus musculus with 8 samples.

Results

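Thrombospondins are secreted matrix proteins, and the Thsd proteins are named for the thrombospondin type 1 repeat that they share with some of them. Every probe of an Agilent mouse expression array that was not a control and carried the gene name Thbs1, Thbs2, Thbs3, Thbs4, Comp, Thsd1, Thsd4, Thsd7a or Thsd7b was taken, which gave 14 probes of 9 genes among 55681 probes of 34650 gene names. RNA came from whole dorsal root ganglia (DRGs) of lumbar levels L3 to L5, where sensory neurons lie among satellite glia, Schwann cells, vessels and connective tissue. The tested mice were α-Gal A(-/0) males (FD), which lack α-galactosidase A and serve as a model of Fabry disease, an X-linked lysosomal storage disorder with neuropathic pain. The controls were wildtype C57BL/6J males. All mice were 20 to 24 weeks old and untreated, the strain of both groups was given as C57BL/6J, and each of the 4 FD and 4 wildtype samples held the DRGs of 2 mice. FD and wildtype mice came from separate inbred colonies, so genotype and colony cannot be told apart.

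Thrombospondins are calcium-binding glycoproteins that cells secrete into the matrix around them, where they bind growth factors, proteases, collagens and receptors on the cell surface. Thbs1 and Thbs2 form trimers, carry type 1 repeats and inhibit the growth of vessels. Thbs3, Thbs4 and Comp form pentamers, lack type 1 repeats and are best known from bone, cartilage and tendon. Thrombospondins bind the calcium channel subunit encoded by Cacna2d1, which is also the receptor of gabapentin, and Thbs4 is known in rodents to increase in DRG and spinal cord after nerve injury. The Thsd genes encode other proteins with type 1 repeats. Thsd7a and Thsd7b are closely related membrane proteins, and THSD7A is known in humans as a target of autoantibodies in membranous nephropathy. Despite names that are easily confused, Thsd7a and Thbs1 (thrombospondin 1) are separate genes on different chromosomes.

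The results turn on which stretch of a transcript each probe reads, so the sequences that set the Thsd7a, Thbs3 and junction-spanning probes apart are given here as the files hold them. Each probe is 60 bases long, and positions are on mm9. For Thsd7a, on the minus strand of chromosome 6, the first 30 bases of each of the 4 probes are shown, numbered 5′ to 3′ along the gene.
Thsd7a probe 1: cctgagcattgtctcaaagaacaaataaaa
Thsd7a probe 2: aaacctttaaccttagcatacgatggagac
Thsd7a probe 3: aagtgcatgctgtgtcctgagagttttgtg
Thsd7a probe 4: catagtcatggtcttttgcccttttcatgg
Probe 1 lies at chr6:12415318-12415377, probe 2 at chr6:12267349-12267408, probe 3 at chr6:12267087-12267146 and probe 4 at chr6:12265957-12266016. Probes 2 to 4 are annotated to the RefSeq transcript and lie within 1452 bases of each other, at positions 5199, 5461 and 6591 of the transcript. Probe 1 is annotated to a separate cDNA and lies 147910 bases upstream of probe 2, and no annotation of exons on this build was used.

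The 2 Thbs3 probes, at chr3:89030667-89030726 and chr3:89030682-89030741 on the plus strand, overlap by 45 bases, so they read nearly the same site and do not count as separate evidence. Of that shared stretch, 30 bases are shown.
Thbs3 probes 1 and 2: actcaggttctaaccccaggaaagacaaca
The Thbs2 and Comp probes span more of the genome than their own length, 1264 and 134 bases, so each crosses a splice junction. Each is shown whole, Thbs2 from the minus strand at chr17:14804526-14805789 and Comp from the plus strand at chr8:72905692-72905825.
Thbs2: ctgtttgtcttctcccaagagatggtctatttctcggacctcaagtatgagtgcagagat
Comp: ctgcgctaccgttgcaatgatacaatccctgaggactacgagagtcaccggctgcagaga

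Values below are log2 signals after quantile normalization of the 8 arrays. A log2 difference of 1 would be a 2-fold change, and levels of different probes are not compared, since probes bind with different strength. A probe was tested when it was well above background on all 8 arrays, which held for 29432 probes, among them 12 of the 14 probes and all 9 of the genes described here. Groups were compared with limma and p-values adjusted by Benjamini and Hochberg over the 29432 probes. A probe is called at an adjusted p under 0.05, and a difference is FD minus wildtype. The study itself filtered on unadjusted p-values and on fold changes. A call that is lost below, with any test, therefore does not by itself show whether the study's own rule was met.

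On the single slide, read in 1 scan, arrays had 56.5% to 60.8% of their probes well above background and 0 saturated spots. The first principal component, with 32.9% of the variance, held the 4 FD samples between -21.1 and -16.3 and the 4 wildtype samples between 14.9 and 32.7, and wildtype samples 1 and 2 lay farthest apart on the second. The only probe of Gla, the disrupted gene, read 16.49 to 16.72 over the 8 samples (adjusted p = 0.879 in limma), and since the files do not say whether its site is lost in the targeted allele it does not check the labels. The 8 tested markers of sensory neurons were bright in both groups, with summed signals of 667100 to 691500 in FD samples and 640100 to 695200 in wildtype samples.

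Of the 9 genes, only Thsd7a had called probes. Its signal was lower in FD DRGs at 2 of its 3 tested probes, by 1.34-fold at each. Thbs3 and Thbs4 had lower means in FD DRGs as well, by 1.3-fold at the first Thbs3 probe and 1.44-fold at Thbs4, without passing the threshold. Thbs1, Thbs2, Comp, Thsd1, Thsd4 and Thsd7b were not called either. Thus 2 of the 12 tested probes were called, both lower in FD, where 3.07% of all tested probes were called, 1.11% as lower and 1.96% as higher. The 12 probes had a median difference of -0.28, and 8 of them were negative, against a median of 0.019 and 44.7% negative over all tested probes. Of these 12 probes, 3 belong to Thsd7a and 2 to one site in Thbs3. With the brightest tested probe for each gene, 1 of 9 genes was called, where 3.12% of 21003 genes were, and the median difference was -0.15. Thsd7a was already known to be lower in these samples when the genes were chosen, so neither count is independent evidence.

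**Figure D1:**
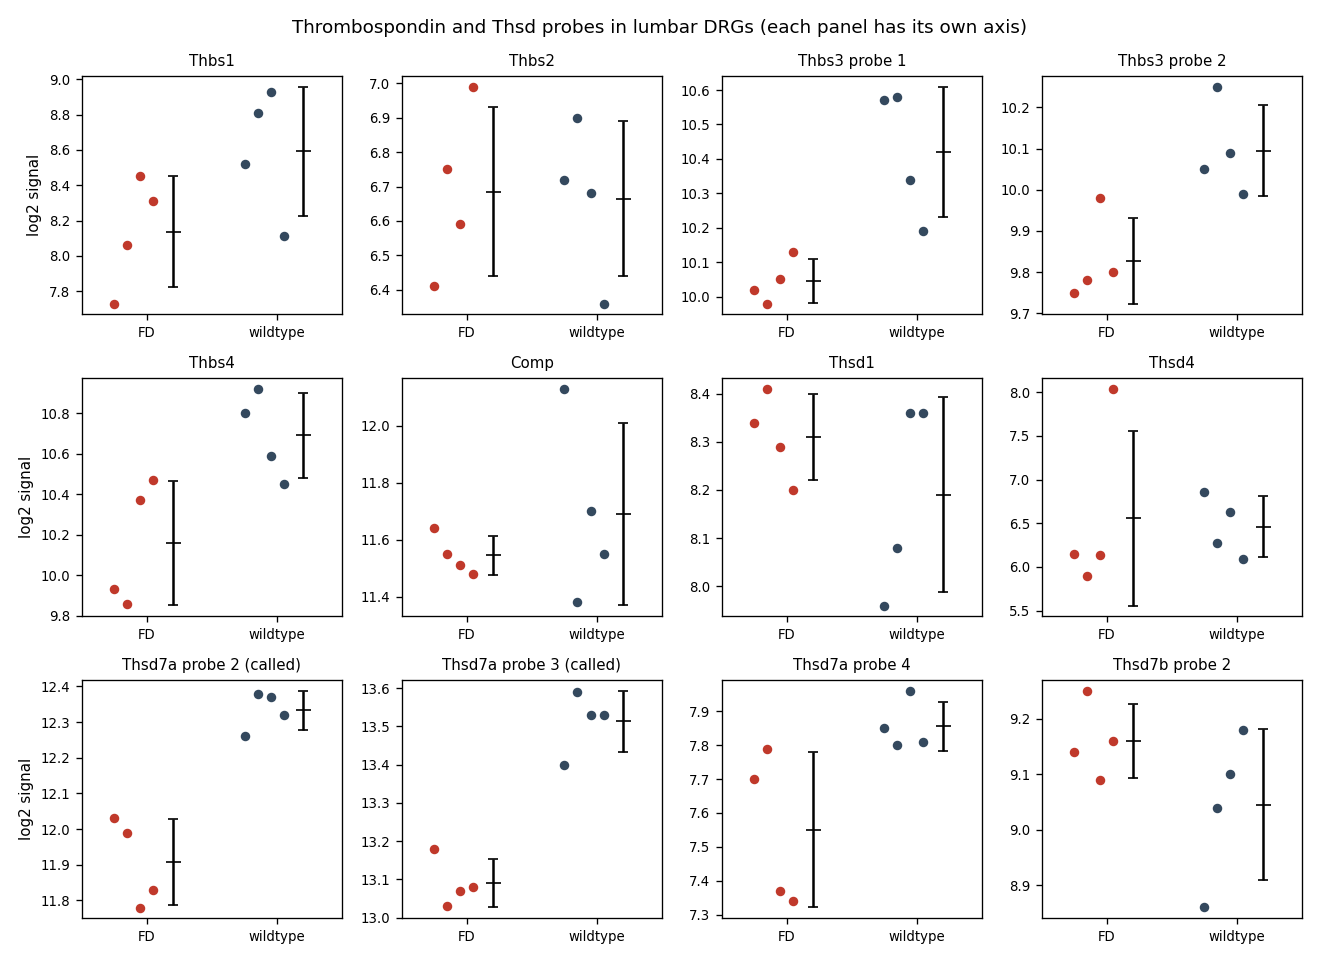
Log2 signal (vertical axis, one scale per panel) of the 12 tested probes in the 4 FD samples (red, left) and the 4 wildtype samples (dark blue, right), in sample order 1 to 4, with mean and SD as black bars. FD points lie below all wildtype points in the panels of Thsd7a probes 2, 3 and 4 and of both Thbs3 probes, and Thsd4 has 1 FD sample at 8.04.

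Thsd7a, a membrane protein with a long row of type 1 repeats that is known in humans from endothelial cells and kidney podocytes, fell in FD DRGs. At probe 3 the FD samples read 13.18, 13.03, 13.07 and 13.08, against 13.40, 13.59, 13.53 and 13.53 in the wildtype samples. All 4 FD values lay below all 4 wildtype values, with a gap of 0.23 between the groups, which was wider than the spread of either, 0.15 among FD samples and 0.18 among wildtype samples. The means were 13.09 ± 0.063 in FD DRGs and 13.51 ± 0.078 in wildtype DRGs (SD, n = 4 each), a difference of -0.42 (SE 0.062, 95% interval -0.57 to -0.28, adjusted p = 0.0086 in limma). At probe 2 the FD samples read 12.03, 11.99, 11.78 and 11.83, against 12.26, 12.38, 12.37 and 12.32 in the wildtype samples. Here too the groups did not overlap, by 0.23, with FD samples 3 and 4 the lowest. The difference was again -0.42 (SE 0.071, 95% interval -0.58 to -0.26, adjusted p = 0.0179 in limma). Among all tested probes, 5.1% had all FD samples below all wildtype samples.

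Probe 4, the farthest 3′ of the Thsd7a probes, read 7.70, 7.79, 7.37 and 7.34 in FD samples, against 7.85, 7.80, 7.96 and 7.81 in wildtype samples. FD samples 3 and 4 were low, while FD sample 2 lay just under the lowest wildtype sample. The difference of -0.30 (SE 0.11) had the sign of the other 2 and was not called (adjusted p = 0.198 in limma). The 2 called probes differ in how far the call holds. Probe 3 was called in each of the 8 fits that left out 1 sample (adjusted p between 0.00569 and 0.0401 in limma), whereas probe 2 lost its call without FD sample 3 (adjusted p = 0.0528), FD sample 4 (0.0613), wildtype sample 3 (0.0561) or wildtype sample 4 (0.0503), at differences of -0.43 to -0.38. With the methods' test for unequal variances on the same values, probe 3 was called (adjusted p = 0.0333) and probe 2 was not (adjusted p = 0.103). In that test the unadjusted p was 0.000189 for probe 3 and 0.0024 for probe 2. With a 1.34-fold change each, both probes met the study's own filters on these values. The same test called 0.904% of all tested probes at the adjusted threshold, where limma called 3.07%.

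The upstream probe 1 was at or near background. It read 4.60, 3.47, 3.80 and 5.85 in FD samples, against 2.58, 2.59, 2.98 and 2.62 in wildtype samples. All FD values were higher, with FD sample 4 the highest, but only that FD sample was well above background, so the probe was left out of the test. The lowest signals that counted as well above background averaged 4.76 over the wildtype arrays, which is above the FD mean of 4.43, and no fold change can be given.

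**Figure D2:**
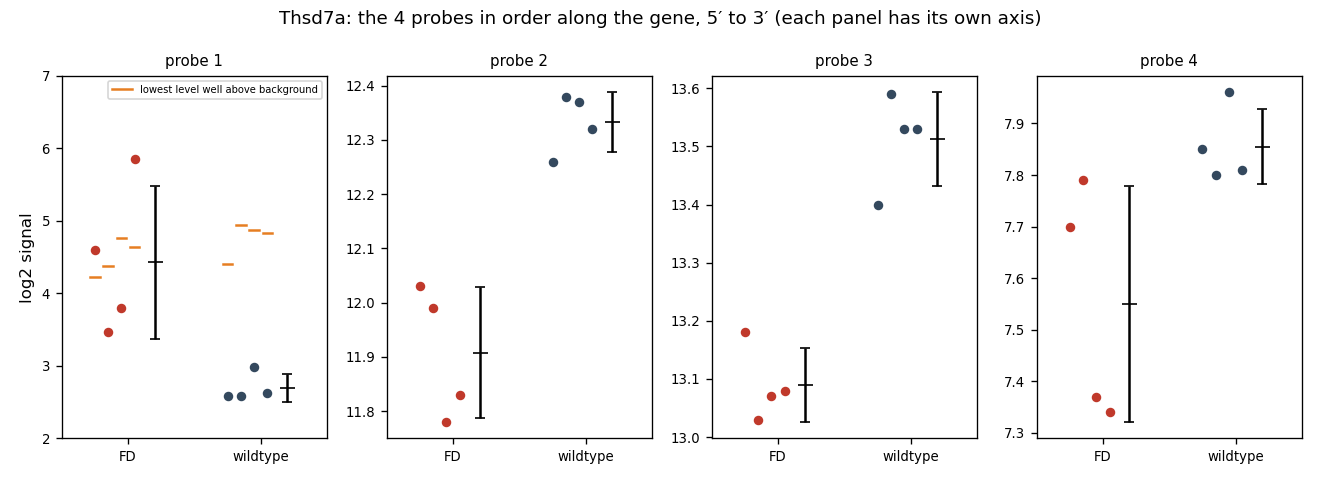
Log2 signal (vertical axis, one scale per panel) of the 4 Thsd7a probes from upstream (left) to downstream (right) in FD samples (red) and wildtype samples (dark blue), with mean and SD as black bars. At probe 1, orange dashes mark for each array the lowest signal that was well above background; of the 2 FD points above their dash only sample 4 met the scanner's criterion. At probes 2 and 3 the groups are separated by 0.23.

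The probes of other genes most like the called Thsd7a probes over the 8 samples were found by Pearson's r. Probes of the genes described here and probes named only by a chromosome position were left out. This r mostly follows the split between FD and wildtype samples and is given as a description. For probe 3 these were Gm14391 (r = 0.996), Atf4, a transcription factor of the integrated stress response (r = 0.993), Ubald2 (r = 0.989), A930006K02Rik (r = 0.987) and Tmem234 (r = 0.984). For probe 2 they were AK161320 (r = 0.986), Ttll7, a tubulin glutamylase (r = 0.984), Gm7710 (r = 0.981), Gm14326 (r = 0.976) and Pla2g2d, a secreted phospholipase (r = 0.973). No name stood in both lists. Gm14391, Atf4, Ubald2, AK161320 and Ttll7 were not called (adjusted p between 0.0617 and 0.133 in limma). The others were called as lower in FD (adjusted p between 0.00224 and 0.0441 in limma).

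Thsd7b, the paralog of Thsd7a, was not called. Its probe annotated to the RefSeq transcript, at chr1:132115519-132115578, read 9.14, 9.25, 9.09 and 9.16 in FD samples, against 8.86, 9.04, 9.10 and 9.18 in wildtype samples. The groups overlapped, with wildtype sample 1 the lowest, and the difference was 0.12 (SE 0.077, adjusted p = 0.466 in limma). Its other probe, 169031 bases upstream, was well above background on 0 of the 8 arrays.

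Of the pentameric thrombospondins, Thbs3, a matrix protein known from the growing skeleton, came closest to the threshold. At its first probe the FD samples read 10.02, 9.98, 10.05 and 10.13, against 10.57, 10.58, 10.34 and 10.19 in the wildtype samples. The FD samples lay close together and below all wildtype samples, which spread over more than the gap of 0.06 between the groups. The difference was -0.38 (SE 0.095, adjusted p = 0.0757 in limma), and it passed the threshold when wildtype sample 4, the lowest of that group, was left out (-0.45, adjusted p = 0.0395). At the overlapping second probe the FD samples read 9.75, 9.78, 9.98 and 9.80, against 10.05, 10.25, 10.09 and 9.99 in the wildtype samples. Again no FD value reached the wildtype range, by a margin of 0.01, and the difference was -0.27 (SE 0.078, adjusted p = 0.119 in limma, and 0.0489 after normexp background correction).

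Thbs4, which is linked in rodents to neuropathic pain and synapse formation, had the most negative difference of the 12 tested probes. Its probe, at chr13:93521565-93521624 on the minus strand, read 9.93, 9.86, 10.37 and 10.47 in FD samples, against 10.80, 10.92, 10.59 and 10.45 in wildtype samples. FD samples 1 and 2 lay far below the wildtype range and FD sample 4 inside it. The means were 10.16 ± 0.31 in FD DRGs and 10.69 ± 0.21 in wildtype DRGs (SD, n = 4 each), a difference of -0.53 (SE 0.16, 95% interval -0.89 to -0.17). Its unadjusted p was 0.00956 in limma, and its adjusted p of 0.128 did not pass. Of all tested probes, 17.6% had an unadjusted p under 0.05, 6.98% with a lower FD mean, and of the 12 probes here 6 did, all with a lower FD mean: 3 of Thsd7a, 2 of Thbs3 and that of Thbs4.

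Comp, cartilage oligomeric matrix protein, read 11.64, 11.55, 11.51 and 11.48 in FD samples, against 12.13, 11.38, 11.70 and 11.55 in wildtype samples. Wildtype sample 1 was high and the groups overlapped. The difference was -0.15 (SE 0.14, adjusted p = 0.627 in limma), and it was 0 to 2 decimals without wildtype sample 1.

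The trimeric thrombospondins were not called. Thbs1, which is stored in platelets and activates latent TGF-β, was read at chr2:117952585-117952644 with 7.73, 8.06, 8.45 and 8.31 in FD samples, against 8.52, 8.81, 8.93 and 8.11 in wildtype samples. FD sample 1 was the lowest of all, and wildtype sample 4 lay among the FD samples. The difference was -0.46 (SE 0.2, 95% interval -0.92 to 0.01, adjusted p = 0.291 in limma), so that a fall of the size seen in Thsd7a lies inside the interval, as does 0. Thbs2, an inhibitor of vessel growth made by fibroblasts, read 6.41, 6.75, 6.59 and 6.99 in FD samples, against 6.72, 6.90, 6.68 and 6.36 in wildtype samples. The groups covered nearly the same range, and the difference was 0.02 (SE 0.15, 95% interval -0.31 to 0.35, adjusted p = 0.955 in limma). The sign of this value changed with single samples and with the scaling.

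The other Thsd genes were not called. Thsd1, a membrane protein of endothelial cells, at chr8:23370246-23370305, read 8.34, 8.41, 8.29 and 8.20 in FD samples, against 7.96, 8.08, 8.36 and 8.36 in wildtype samples. Wildtype samples 1 and 2 were lower than the rest, and the difference was 0.12 (SE 0.1, adjusted p = 0.575 in limma). Thsd4, which promotes the assembly of fibrillin microfibrils, at chr9:59818072-59818131 on the minus strand, read 6.15, 5.89, 6.14 and 8.04 in FD samples, against 6.86, 6.27, 6.63 and 6.09 in wildtype samples. FD sample 4 lay far above all others, and the other 3 FD samples lay between 5.89 and 6.15. The difference was 0.09 (SE 0.44, adjusted p = 0.935 in limma) with that sample and -0.40 (SE 0.18, adjusted p = 0.368) without it. The sign also turned without wildtype sample 4 (-0.03), so the direction is not settled.

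**Figure D3:**
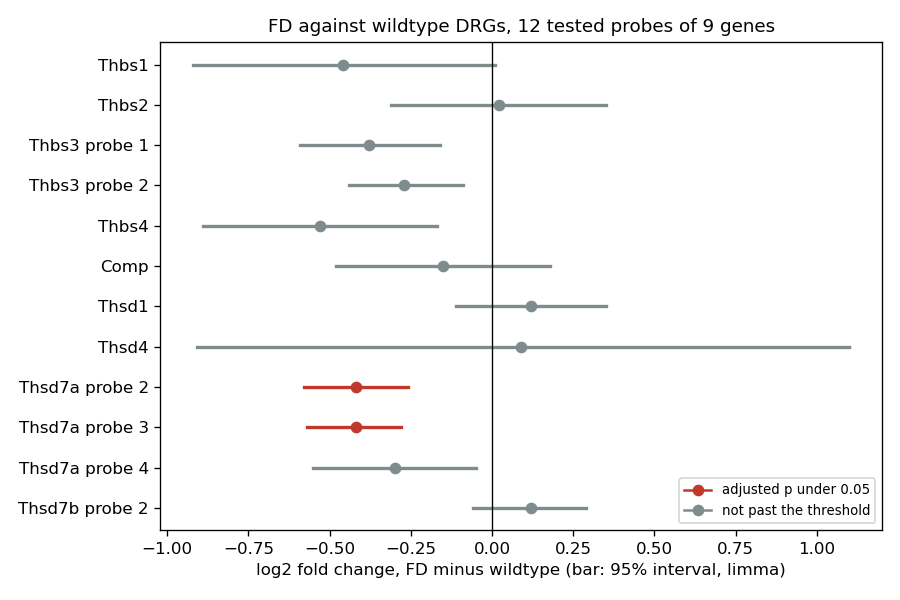
Difference in log2 signal, FD minus wildtype (horizontal axis), with its 95% interval from limma, for the 12 tested probes (rows, thrombospondins above and Thsd genes below). Called probes are red and lie at -0.42 for Thsd7a probes 2 and 3; the widest interval, -0.91 to 1.1, is that of Thsd4.

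The slide held its arrays in 2 rows, with FD samples 1 to 3 and wildtype sample 1 in the first and FD sample 4 and wildtype samples 2 to 4 in the second. Thsd7a was lower in FD within both rows, by -0.31 and -0.47 at probe 3, -0.32 and -0.53 at probe 2, and -0.23 and -0.51 at probe 4. Thbs3 probe 1 differed by -0.56 and -0.24 and Thbs4 by -0.74 and -0.19. Thbs2 (-0.14 and 0.35), Thsd1 (0.38 and -0.06) and Thsd4 (-0.80 and 1.71) changed sign between the rows. With the row as a block both Thsd7a calls held, at adjusted p = 0.0314 for probe 3 and 0.047 for probe 2 in limma. In each row 1 group had a single sample, so these values carry no error of their own.

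Receptors and matrix partners of the thrombospondins were taken from lists written with earlier results of these samples known, with the brightest tested probe for each gene. Of 16 receptor genes 15 were tested and 0 were called in limma, where 3.12% of all genes were. At an unadjusted p under 0.05 there was 1, where 17.7% of all genes were, and the methods' t-test called 0 as well. The median difference of the list was -0.062, against 0.019 over all genes. Cacna2d1, the calcium channel subunit that binds thrombospondins and gabapentin, read 13.79, 13.85, 13.93 and 13.77 in FD samples, against 13.76, 13.69, 13.63 and 13.53 in wildtype samples. Every FD value was above every wildtype value, by little, as was the case for 8.3% of all tested probes, and the difference of 0.18 (SE 0.068) did not pass (adjusted p = 0.211 in limma). Its second tested probe gave 0.15 (SE 0.096), with overlap. The other 3 receptors nearest to the threshold were the laminin receptor subunit Itga6 at -0.16, the endocytic receptor Lrp1 at -0.21 and calreticulin (Calr) at 0.15, with adjusted p between 0.342 and 0.432 in limma. Cd36, the receptor through which Thbs1 acts on endothelial cells, was not well above background on all arrays.

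Of 21 matrix partner genes, 15 were tested and 0 were called in limma or by the methods' t-test, where limma called 3.12% of all genes. At an unadjusted p under 0.05 in limma there were 3, where 17.7% of all genes were in either direction. Each of the 3 had a lower FD mean, and 6.98% of all tested probes had such a p with a lower FD mean. The median difference was -0.075. Decorin (Dcn), a small proteoglycan of fibrous tissue, read 16.33, 16.24, 16.31 and 16.44 in FD samples, against 16.53, 16.76, 16.67 and 16.53 in wildtype samples. The groups were apart, and the difference of -0.29 (SE 0.075) missed the threshold (adjusted p = 0.0806 in limma). The protease Mmp2, which Thbs2 helps to clear, differed by -0.37 (SE 0.1, adjusted p = 0.106), and Tgfb2 by -0.18 (SE 0.081, adjusted p = 0.288). Col2a1, the collagen of cartilage that Comp binds, read 4.91, 5.11, 6.85 and 6.97 in FD samples, against 7.48, 7.30, 7.61 and 7.46 in wildtype samples. All FD samples were lower but FD samples 1 and 2 far more so than FD samples 3 and 4, and the difference was -1.50 (SE 0.46, adjusted p = 0.135 in limma). In FD samples 1 and 2 the Col2a1 values lay near the lowest signals that counted as well above background there, 4.22 and 4.38. FD samples 1 and 2 were also the lowest for Thbs4, but for Comp they were the highest FD samples, at 11.64 and 11.55.

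Among 56 other genes with type 1 repeats, 39 were tested. Of these, 3 were called higher and 0 lower in FD DRGs, where 2.02% of all genes were called higher and 1.1% lower. At an unadjusted p under 0.05 in limma, 7 had a higher and 5 a lower FD mean, where 17.7% of all genes were in either direction. The median difference of the 39 was 0.023. Adamts8, a secreted metalloprotease, read 10.82, 10.79, 10.89 and 10.77 in FD samples, against 9.86, 9.74, 10.00 and 10.09 in wildtype samples. The groups were well apart, and Adamts8 rose by 0.90 (SE 0.082), or 1.86-fold (adjusted p = 0.00074 in limma). A second tested probe of the gene gave a difference of -0.11 (SE 0.17, adjusted p = 0.786), so the rise was seen at 1 of 2 probes. That second probe averaged 5.62 over the 8 samples, near background. The lowest signals that counted as well above background were 4.22 to 4.94. The Wnt agonist Rspo1 read 12.24, 12.26, 12.27 and 12.45 in FD samples, against 11.94, 11.97, 12.00 and 11.96 in wildtype samples. These values did not overlap either, and Rspo1 rose by 0.34 (SE 0.061, adjusted p = 0.0243 in limma). Hmcn1, a large protein of the basement membrane, read 7.04, 7.37, 7.07 and 6.99 in FD samples, against 6.36, 6.59, 6.48 and 6.81 in wildtype samples. It rose by 0.56 (SE 0.12, adjusted p = 0.0421), just inside the threshold. The next in order, Adamtsl5, was at 0.47 (SE 0.11, adjusted p = 0.057). Of 17 alternatives, 16 called Adamts8, 9 called Rspo1 and 4 called Hmcn1. The methods' t-test called none of the 3 (adjusted p = 0.0572 for Adamts8, 0.125 for Rspo1 and 0.139 for Hmcn1).

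**Figure D4:**
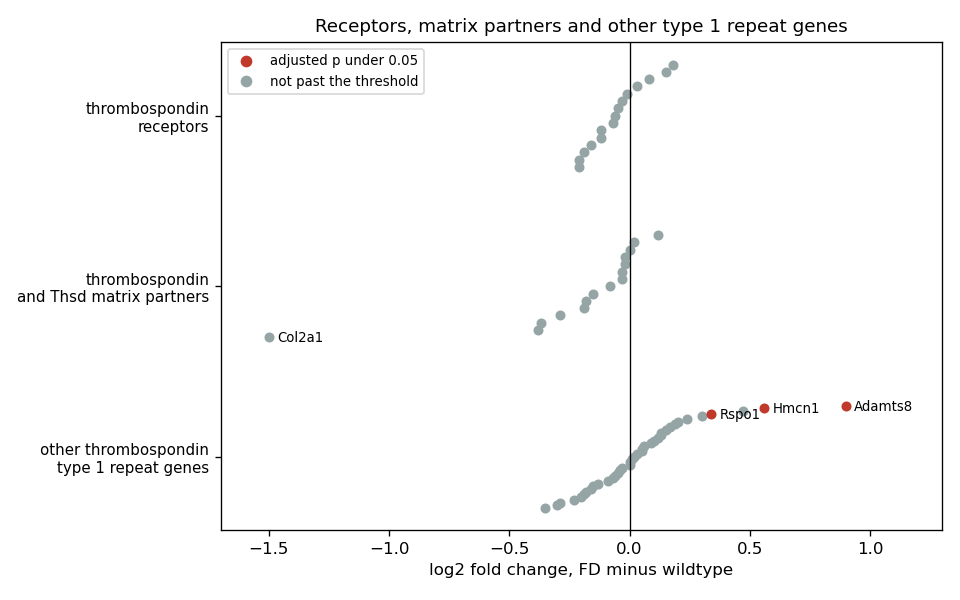
Difference in log2 signal, FD minus wildtype (horizontal axis), for the tested genes of 3 lists (rows): 15 receptors, 15 matrix partners and 39 other genes with type 1 repeats, 1 point a gene at its brightest tested probe, sorted within the row. The 3 called genes (red) are Rspo1 at 0.34, Hmcn1 at 0.56 and Adamts8 at 0.90, all in the bottom row; the grey point at -1.50 is Col2a1.

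Tbxa2r, the receptor of thromboxane on platelets and smooth muscle, is named by the study beside Thsd7a. It read 7.66, 7.62, 7.47 and 7.33 in FD samples, against 8.26, 7.82, 8.14 and 8.12 in wildtype samples. All FD samples were lower, and Tbxa2r fell by 0.57 on the log2 scale (SE 0.11), 1.48-fold lower (adjusted p = 0.0312 in limma, and 0.12 with the methods' t-test). It kept its call in 7 of 17 alternatives, and in the 8 fits that left out 1 sample only without wildtype sample 2.

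In whole ganglia, fewer cells of a type and less RNA per cell cannot be told apart. Markers of cell types that make thrombospondins are therefore given beside these values, with 0 called in the first 3 lists below. The 7 markers of fibroblasts and meninges had summed signals of 103200 to 117200 in FD samples and 122300 to 141900 in wildtype samples. The sums did not overlap, but most of this signal was that of Dcn alone, and the other 6 markers, each of which overlapped between the groups, summed to 25730 to 30050 in FD samples and 27860 to 33610 in wildtype samples, which overlap. The 7 markers of endothelium summed to 8144 to 8986 in FD samples and 8990 to 10300 in wildtype samples, apart as a sum by little, with 6 of 7 differences negative, Kdr at 0.13, and overlap between the groups at each of the 7. The 8 markers of smooth muscle and pericytes had 8 negative differences and summed to 7388 to 8050 in FD samples and 7558 to 10400 in wildtype samples, which overlap. Their part in the Thsd7a, Thbs3 and Thbs4 values was not tested.

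Markers of blood also had lower means in FD DRGs, 3 of 3 for platelets and 4 of 4 for red blood cells, with 0 called and overlapping sums. The 3 tested platelet markers, Pf4, Ppbp and Itga2b, summed to 1592 to 2479 in FD samples and 2183 to 4815 in wildtype samples. The defining receptor genes Gp9 and Gp1ba were not well above background on all arrays. The 4 red blood cell markers summed to 32730 to 55010 in FD samples and 46810 to 67490 in wildtype samples. For Thbs1, which platelets carry, the part of blood was not tested.

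Of the markers of cartilage, bone and tendon, in which Comp, Thbs3 and Thbs4 are abundant, 5 of 8 were tested. The sums were 4000 to 4170 in FD samples and 3748 to 4649 in wildtype samples. The tendon marker Tnmd was not well above background on all arrays. Fmod, fibromodulin, was the 1 called marker of all the cell types listed, where 3.12% of all genes were called. It read 5.66, 5.42, 5.92 and 5.33 in FD samples, against 6.57, 6.66, 6.42 and 6.20 in wildtype samples. The FD values lay near background, where the lowest signals that counted as well above it were 4.22 to 4.94. Fmod fell by 0.88 on the log2 scale (SE 0.15, adjusted p = 0.0163 in limma). The call was lost with the methods' t-test (adjusted p = 0.101), without the background filter (0.061) and without FD sample 2 (0.0587), and after normexp background correction the difference was -0.38 (adjusted p = 0.0239). Of the other 4 tested markers, Col2a1 is given above at -1.50 with all FD samples lower, and Acan (-0.07), Scx (-0.05) and Ibsp (0.07) were nearer to 0, with none of the 4 called. The markers of macrophages summed to 6061 to 8149 in FD samples and 7019 to 8386 in wildtype samples. Those of Schwann cells and myelin summed to 88340 to 97620 in FD samples and 96980 to 106300 in wildtype samples. For satellite glia the sums were 187300 to 207300 in FD samples and 193800 to 215200 in wildtype samples. Each of these sums overlapped between the groups. All 7 Schwann cell and myelin markers had negative differences. Mbp (-0.19) and Pmp22 (-0.11) had all FD samples below all wildtype samples, and the rest overlapped. Of the 6 macrophage markers 5 were negative, and Cd68 was at 0.51 with all FD samples higher (adjusted p = 0.0573 in limma). Of 6 skeletal muscle markers only Acta1 was tested.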

How the data were processed

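The authors hybridized Cy3-labelled RNA to 1-color Agilent arrays and read spot intensity with Agilent Feature Extraction 10.7.3.1; the deposited intensity values are background-adjusted per the file headers. The authors also deposited a log2 table, quantile normalized in GeneSpring, used here only as an alternative. Here the log2 of the processed intensity was averaged over the spots of a probe without control and outlier spots, and 55681 probes were quantile normalized and fitted with limma 3.58.1 in R 4.3.3. A probe was well above background when at least 0.5 of its spots were. The fit was tested on simulated data. Each group had 4 samples, and the number of arrays limits the precision. Alternatives were the methods' t-test, other scaling, background correction, filters, array weights, slide row or replicate number as a block, and leaving out each sample.

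Named genes are every probe of the members, the called genes and the 4 with the smallest adjusted p of 3 lists, and Tbxa2r. Added to these are the 5 probes of other genes most like each called member probe. Fmod, Scx, Acan, Ibsp, Kdr, Mbp, Pmp22 and Cd68 were named after their values were seen. Members and lists were chosen with earlier results of these data known.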

Additional observations from a re-analysis of the deposited data

Results flagged for a closer look

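Each sample's distance to its closest neighbour within the group was set against the range of that group with Dixon's limit for 4 samples. Of 28 groups of 4 values, 2 had a sample beyond it, where chance puts about 1 group in 20 there. For Thsd4, FD sample 4 read 8.04 and the other FD samples 5.89 to 6.15 (gap 0.879 of the range). Over all tested probes, FD sample 4 stood out as high by more than 1 log2 unit at 19. The other FD samples did so at 1 to 14 probes and the wildtype samples at 35 to 64. For Thsd7a probe 1, wildtype sample 3 read 2.98 and the other wildtype samples 2.58 to 2.62 (gap 0.897 of the range). None of these values was well above background.

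The upstream Thsd7a probe was outside the test because it was not well above background on all arrays, yet it was well above background in FD sample 4, at 5.85, against 2.58 to 2.98 in the wildtype samples.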

How the results depend on the processing

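The 12 tested probes were recomputed under 17 alternatives, which gave 204 differences. Of these, 189 kept both direction and side of the threshold, 7 lost a call (6 at Thsd7a probe 2 and 1 at probe 3), 2 gained one and 6 changed sign, all among Thbs2 and Thsd4. Thbs2 turned to -0.03 with scaling to the 75th percentile, to just under 0 without FD sample 2 and to -0.08 without FD sample 4 or wildtype sample 4, and ranged from -0.08 to 0.11 over the fits without 1 sample. Thsd4 turned to -0.40 without FD sample 4 and -0.03 without wildtype sample 4, within a range of -0.40 to 0.31 without 1 sample. Thsd7a probe 3 stayed between -0.46 and -0.37 (adjusted p from 0.00212 to 0.09 in limma). Of the 12 probes 2 were called in the main comparison, 3 after normexp, 1 with the methods' t-test and 1 to 2 when 1 sample was left out (1 without FD sample 3, FD sample 4 or wildtype sample 3). Over all probes 904 calls became 556 without the background filter, which tests more probes, 266 with the methods' t-test, 2102 with array weights and 407 to 1042 when 1 sample was left out. The 3 called list genes became 0 with the methods' t-test (12 at an unadjusted p under 0.05), 7 with array weights and 1 to 3 when 1 sample was left out. The cause of these shifts was not tested. The labels number the samples of both groups 1 to 4, but samples of the same number did not deviate together (r between -0.25 and 0.063, and 1 of 4 FD samples correlated best with its own number), so the numbers do not pair them. With the replicate block limma called 284 probes, 0 of the 12 (7 at an unadjusted p under 0.05) and 1 list gene, and both Thsd7a calls were lost (adjusted p = 0.09 for probe 3 and 0.0963 for probe 2). Values near background, such as those of Thsd7a probe 1, are the least precise.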

Other observations

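Genes near the members on the genome, within 1 Mb by probe position on mm9, were looked up as a description. Around Thsd7a 5 other genes were tested and 0 were called in limma, and around Thbs4 0 of 16 were. Around Thbs3 4 of 74 were called, namely 0610031J06Rik, Dcst2, Slc25a44 and Tmem79, where 3.12% of all genes were called. Around Thbs1, Thbs2, Comp, Thsd1, Thsd4 and Thsd7b 0 of 19, 19, 67, 18, 20 and 7 were called.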
